A study of Mus musculus with 24 samples.

Results

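The activin and NODAL pathway genes followed here were Inhba, Inhbb, Nodal, Lefty1, Lefty2, Tdgf1, Gdf3, Fst, Acvr2b and Smad7, and their members were all array probes whose accession belongs to 1 of these 10 genes. Of 41174 probes, 9 did so. They covered 8 of the 10 genes, with 2 probes for Inhbb and 1 each for the other 7, and all 9 were among the 28241 probes that passed the filter on dim probes and were tested. No probe matched Nodal or Smad7 by accession, and these genes were not analysed here.

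The RNA came from R1, a line of mouse embryonic stem (ES) cells, after infection with lentivirus that carried a short hairpin RNA. The hairpins were shNTC, which the design uses as the control, shCdk8-1 and shCdk8-2 against Cdk8, and shMed12-1 and shMed12-2 against Med12. CDK8 and MED12 both belong to the kinase module of Mediator, which connects transcription factors with RNA polymerase II. Cells were taken 8 days after infection (shNTC, shCdk8-1 and shCdk8-2) or 13 days after (all 5 hairpins), which gave 8 groups of 3 biological replicates and 24 two-colour arrays. On each array the cells' RNA was labelled with Cy5 and a mixture of RNA from several mouse cell lines, the universal mouse reference, with Cy3. A level is therefore the log2 ratio of the cells over this reference, and levels of different genes cannot be set against each other. All cells carried a hairpin, so no uninfected cells were compared, and whether each replicate was a separate infection is not stated in the labels.

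The series as a whole had 3 features that bear on these genes. Cdk8 was lower than in shNTC by 0.71 and 0.31 on the log2 scale with shCdk8-1 and shCdk8-2 on day 8 and by 0.95 and 0.64 on day 13, and Med12 was lower by 1.00 and 0.88 with shMed12-1 and shMed12-2, so each group carried the knockdown its label names. Between 48.9% and 76.1% of the spots of an array were well above background in Cy5. On replicate 1 of shCdk8-1 on day 8 and on replicate 3 of shMed12-1 on day 13, a few spots (4 and 7) lay more than 60 intensity units below their local background, and the background model fitted to these 2 arrays pulled their log ratios toward 0: their slope on the other replicates of the group was 0.78 and 0.79, against 0.97 to 1.13 on the other 22 arrays. With the background model refitted without such spots, the slopes of these 2 arrays were 0.97 and 1.01. The planned values are given first throughout, and the values with the refitted background, an alternative added after the data were seen, are given beside the results where they change a call or move a value described here.

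Activins are dimers of inhibin beta subunits, encoded by Inhba and Inhbb, and with NODAL and GDF3 they belong to the transforming growth factor beta family. They bind type II receptors such as ACVR2B and type I receptors, NODAL and GDF3 with the help of the co-receptor CRIPTO (Tdgf1), and the receptors phosphorylate SMAD2 and SMAD3, which enter the nucleus with SMAD4 and act with partners such as FOXH1. LEFTY1 and LEFTY2 are secreted inhibitors of NODAL whose genes are themselves induced by the pathway, follistatin (Fst) binds and blocks activins, and SMAD7 is an inhibitory SMAD. Mouse ES cells express several of these genes, and in the embryo the pathway patterns the epiblast and induces mesoderm and endoderm.

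The region upstream of the start site is shown for 3 members, Inhbb because it was the member that fell with every hairpin, Inhba because it encodes the other activin subunit and did not pass the test with any, and Tdgf1 because its window held the SMAD element. Each line gives the 250 bases before the annotated start of the gene in RefSeq (mouse build GRCm38.p6), 5′ to 3′ on the gene's strand. Capitals mark matches on either strand to CAGAC (the SMAD element), AATNCACA (the core of FOXH1 motifs), TATAAA (the TATA box) or GGGCGG (the GC box).
Inhbb, chr1:119422249-119422498, minus strand: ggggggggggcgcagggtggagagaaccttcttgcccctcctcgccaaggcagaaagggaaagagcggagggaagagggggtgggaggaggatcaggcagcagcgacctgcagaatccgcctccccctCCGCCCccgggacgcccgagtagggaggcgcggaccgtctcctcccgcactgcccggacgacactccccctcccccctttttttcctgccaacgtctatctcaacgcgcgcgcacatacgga
Inhba, chr13:16011601-16011850, plus strand: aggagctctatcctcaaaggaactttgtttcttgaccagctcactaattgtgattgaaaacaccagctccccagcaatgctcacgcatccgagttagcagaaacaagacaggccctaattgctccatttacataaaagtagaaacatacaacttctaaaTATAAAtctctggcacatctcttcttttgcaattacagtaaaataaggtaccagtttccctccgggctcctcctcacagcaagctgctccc
Tdgf1, chr9:110946159-110946408, minus strand: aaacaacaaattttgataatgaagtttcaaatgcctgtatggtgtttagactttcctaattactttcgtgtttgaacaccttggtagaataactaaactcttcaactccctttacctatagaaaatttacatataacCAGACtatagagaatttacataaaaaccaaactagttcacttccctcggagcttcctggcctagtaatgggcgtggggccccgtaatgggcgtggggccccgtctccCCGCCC
The Inhbb window held 1 GC box, from base 122 to base 117 before the start and on the opposite strand, and none of the other 3 motifs. It was 68.0% G and C with 21 CG dinucleotides, against medians of 52.4% and 6 over the 32851 windows of 27025 genes. The Inhba window held 1 TATA box, 91 to 86 bases before the start, and was 43.2% G and C with 3 CG dinucleotides. The Tdgf1 window held 1 SMAD element, 113 to 109 bases before the start, and a GC box next to the start. Of all windows of this length, 42.2% held the SMAD element, 3.18% the FOXH1 core, 12.4% the TATA box and 32.7% the GC box. The window of Acvr2b held 1 SMAD element and 3 GC boxes. A match in such a window is a description of its letters, and whether any factor binds there was not measured.

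Inhbb, the gene of the inhibin beta B subunit of activin B, was lower with every hairpin on each day that hairpin was measured. By its brighter probe, whose values follow, the fall was largest with the Med12 hairpins on day 13. On day 8 the 3 shNTC arrays stood at log2 ratios of 2.63, 2.60 and 2.61, the shCdk8-1 arrays at 1.90, 1.91 and 1.95, and the shCdk8-2 arrays at 1.83, 1.79 and 1.81. No array of either Cdk8 hairpin reached the lowest shNTC array, and the arrays of each group lay close together. On day 13 the shNTC arrays stood at 2.14, 2.25 and 2.28, the shCdk8-1 arrays at 1.49, 1.21 and 1.26, and the shCdk8-2 arrays at 1.80, 1.87 and 1.75. The shMed12-1 arrays stood at 0.93, 0.92 and 0.86 and the shMed12-2 arrays at -0.02, 0.01 and 0.00. No arrays of the 5 groups of day 13 overlapped, every hairpin group lay below shNTC, and the shMed12-2 arrays were the lowest of all 24.

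In fold terms Inhbb fell 1.62-fold with shCdk8-1 and 1.74-fold with shCdk8-2 on day 8 (log2 changes of -0.70 and -0.80, standard error (SE) 0.06 each, limma's adjusted p = 1.01e-07 and 1.39e-08). On day 13 it fell 1.87-fold with shCdk8-1 and 1.33-fold with shCdk8-2 (log2 changes of -0.90 and -0.42, SE 0.06, limma's adjusted p = 6.06e-09 and 8.69e-05). With the Med12 hairpins it fell 2.50-fold (shMed12-1, log2 change -1.32) and 4.68-fold (shMed12-2, log2 change -2.23), with limma's adjusted p of 2.21e-12 and 1.52e-15. The comparisons of 1 day share the same 3 shNTC arrays. Of the 28241 probes tested, 0.163% were lower in all 6 of these comparisons. The change with shMed12-2 was the lowest of all 28241 probes tested, that with shMed12-1 ranked 16 from the lowest, and that with shCdk8-1 on day 13 ranked 25. On slides that held both groups, the difference from shNTC was -0.82 for shCdk8-2 on day 8, -0.39 for shCdk8-2 on day 13 and -2.27 on each of 2 slides for shMed12-2. The shCdk8-1 and shMed12-1 arrays shared no slide with shNTC arrays of their day. No slide held arrays of both hairpins to a gene from the same day.

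**Figure D1:**
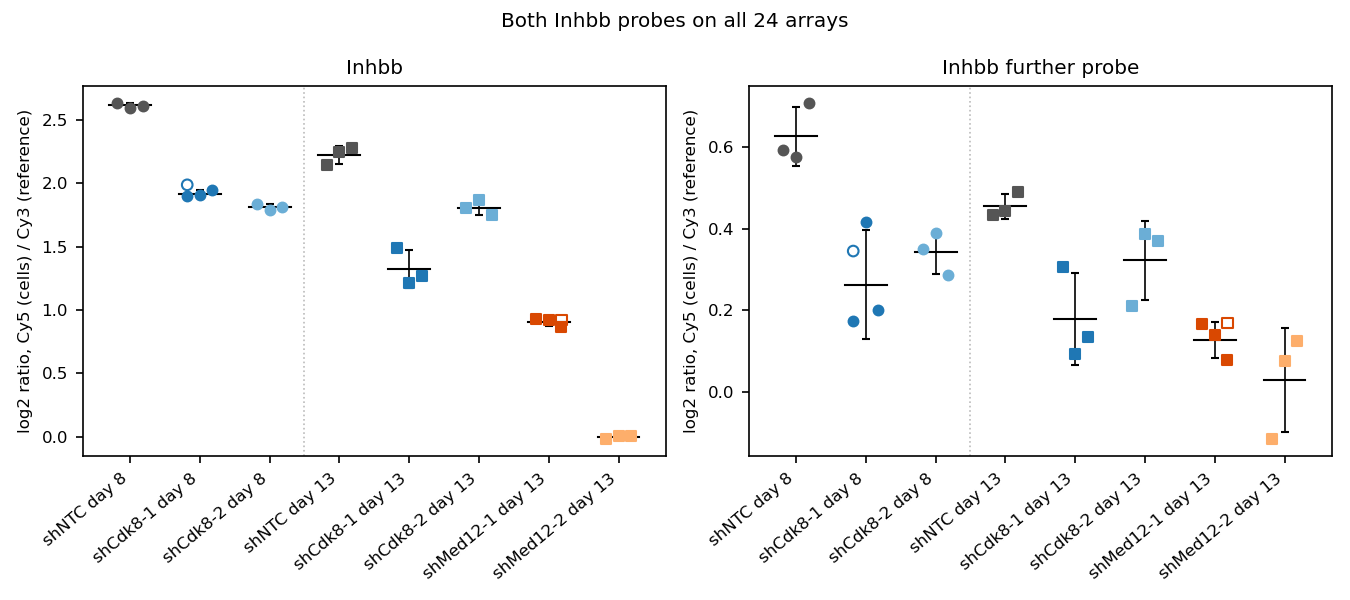
Log2 ratio of Cy5 (cells) over Cy3 (reference) of both Inhbb probes on each of the 24 arrays, by group (circles, day 8; squares, day 13; bars, mean and SD of 3 arrays; open symbols, the 2 arrays with the refitted background). With the brighter probe every hairpin group lies below the shNTC group of its day and the shMed12-2 arrays lie at -0.02 to 0.01.

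The 2 hairpins to a gene did not lower Inhbb equally on day 13. On day 13 the level with shCdk8-1 was lower than with shCdk8-2 by 0.48 (SE 0.06, limma's adjusted p = 1.11e-05), whereas on day 8 the difference was 0.10 (adjusted p = 0.24). Between the Med12 hairpins it was lower with shMed12-2 than with shMed12-1 by 0.91 (adjusted p = 1.01e-09). Averaged over hairpins, the level on day 13 was 1.11 higher with the Cdk8 hairpins than with the Med12 hairpins (SE 0.04, adjusted p = 2.48e-13), a comparison in which the shNTC arrays cancel. In order of their means the groups ran from shNTC day 8 (2.61 ± 0.02, SD, n = 3) over shNTC day 13 (2.22 ± 0.07), shCdk8-1 day 8 (1.92 ± 0.03), shCdk8-2 day 8 (1.81 ± 0.02), shCdk8-2 day 13 (1.81 ± 0.06), shCdk8-1 day 13 (1.32 ± 0.15) and shMed12-1 (0.90 ± 0.03) to shMed12-2 (0.00 ± 0.02). Of neighbours in this order, only the groups shCdk8-2 day 8 and shCdk8-2 day 13 had overlapping arrays.

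The dimmer Inhbb probe, of the same accession, moved the same way over a narrower range. It stood at 0.59, 0.58 and 0.71 with shNTC on day 8 and at 0.43, 0.44 and 0.49 on day 13, and all 6 hairpin groups lay entirely below the shNTC group of their day, as they did with the brighter probe. Of all probes tested, 15.7% (shCdk8-1 day 8), 16.6% (shCdk8-2 day 8), 18% (shCdk8-1 day 13), 17.2% (shCdk8-2 day 13), 21.3% (shMed12-1) and 21.7% (shMed12-2) lay entirely below shNTC. The median Cy5 intensity of this probe over the 24 arrays was 226, against 4460.5 for the brighter probe. Its log2 changes on day 8 were -0.36 (shCdk8-1) and -0.28 (shCdk8-2), -0.28 and -0.13 on day 13, and -0.33 and -0.43 with shMed12-1 and shMed12-2. All but the change with shCdk8-2 on day 13 (limma's adjusted p = 0.31) passed the test, with adjusted p between 0.00037 and 0.019. With slide as a fixed block only the change with shMed12-2 kept an adjusted p below 0.05 (0.00047), the others lying between 0.092 and 0.62. With the brighter probe all 6 changes passed with that block, the highest adjusted p being 0.0081. With the log ratios centred on their median in place of loess, the fall with shCdk8-2 on day 13 was not called (-0.51, adjusted p = 0.16).

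Inhba, which encodes the beta A subunit of activin A, did not pass the test in any of the 6 hairpin comparisons. Its level lay between -3.88 and -3.52 with shNTC on day 13 and between -3.48 and -3.31 on day 8, below the reference mixture on every array. The log2 changes ran from -0.28 with shCdk8-2 on day 8 to 0.47 with shMed12-1 (95% interval 0.07 to 0.87, limma's adjusted p = 0.08). Replicate 3 of shMed12-1, the array with pulled log ratios, stood at -2.77 and refitted at -3.17. Refitted, the change with shMed12-1 was 0.34 (95% interval 0.07 to 0.61, adjusted p = 0.063). The highest refitted change was 0.36 with shCdk8-2 on day 13 (adjusted p = 0.063), and none of the 6 passed. With shCdk8-1 on day 13 and with shMed12-2 its arrays lay entirely above shNTC, as 16.8% and 21.1% of all probes did. With shCdk8-2 on day 8 they lay entirely below it, as 16.6% of all probes did. Over the 6 comparisons the 95% intervals ran from -0.68 to 0.87 as planned and from -0.55 to 0.64 refitted.

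Gdf3, whose product acts through the NODAL receptors, also passed in none of the 6. Its level was between 4.80 and 5.03 with shNTC over both days, and 16 of the 18 arrays with a Cdk8 or Med12 hairpin lay between 4.58 and 5.14. The other 2 were the arrays with pulled log ratios, at 3.56 (shCdk8-1 day 8 replicate 1) and 3.43 (shMed12-1 day 13 replicate 3), and with the refitted background they stood at 4.90 and 4.88. The log2 change with shMed12-1 was -0.70 (95% interval -1.32 to -0.08, limma's adjusted p = 0.097) and became -0.22 (adjusted p = 0.16) with the refitted background. As planned, the shMed12-1 arrays lay entirely below the shNTC arrays of day 13, as 21.3% of all probes did. Refitted, they still lay below them, by a narrow margin.

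Tdgf1, the CRIPTO co-receptor and a marker of undifferentiated ES cells, was lower with shMed12-1. On day 13 the shNTC arrays stood at 4.91, 4.84 and 4.82 and the shMed12-1 arrays at 3.97, 4.25 and 3.36, the last of these at 4.20 with the refitted background. Its log2 change of -0.996 (SE 0.24, limma's adjusted p = 0.0049) was -0.71 (SE 0.13, adjusted p = 0.0002) with the refitted background and -0.76 (adjusted p = 0.26) with slide as a fixed block. The shMed12-2 arrays stood at 4.47, 4.50 and 4.60, all below shNTC, and their change of -0.33 did not pass (adjusted p = 0.42). The Med12 hairpins differed by -0.67 for Tdgf1 (limma's adjusted p = 0.057), and by -0.38 (adjusted p = 0.03) refitted.

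With the Cdk8 hairpins on day 13, Tdgf1 stood at 4.77, 4.21 and 4.45 (shCdk8-1) and 4.21, 4.51 and 4.44 (shCdk8-2). All 6 arrays were below the lowest shNTC array, and the changes of -0.38 and -0.47 did not pass in the planned analysis (limma's adjusted p = 0.39 and 0.26). With the refitted background, which changed no value of these arrays but narrowed the pooled spread of the gene (SE 0.13 in place of 0.24), both passed (adjusted p = 0.046 and 0.014). On day 8 the shNTC arrays stood at 4.83, 5.03 and 4.96, the shCdk8-1 arrays at 3.54 (4.42 refitted), 4.66 and 4.73 and the shCdk8-2 arrays at 4.97, 4.91 and 4.47. Neither change of day 8 passed in either analysis. In all, 5 of the 6 hairpin groups lay entirely below the shNTC arrays of their day for Tdgf1, with shCdk8-2 on day 8 the exception. Of all probes tested, between 15.7% (shCdk8-1 day 8) and 21.7% (shMed12-2) lay entirely below shNTC in these 5 comparisons.

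Acvr2b, a type II receptor for activins and NODAL, was lower with shMed12-1 and passed with no other hairpin in the planned analysis. The shNTC arrays of day 13 stood at 2.56, 2.60 and 2.42, the shMed12-1 arrays at 1.83, 2.22 and 1.64 (2.12 refitted) and the shMed12-2 arrays at 2.70, 2.72 and 2.82. The arrays of shMed12-1 lay below shNTC, as 21.3% of all probes did, and those of shMed12-2 above it, as 21.1% did. No probe of the 9 lay entirely above shNTC with shMed12-1, where 20.6% of all probes did. The change with shMed12-1 was a 1.54-fold fall (log2 change -0.62, SE 0.13, limma's adjusted p = 0.0018), which was -0.47 (adjusted p = 0.00018) with the refitted background and lost the call with slide as a fixed block (adjusted p = 0.089). The difference between the Med12 hairpins was -0.84 (SE 0.13, adjusted p = 0.00011). With shCdk8-1 the level was 2.87, 2.78 and 2.82 on day 13, above all 3 shNTC arrays, as 16.8% of all probes were. This change of 0.30 passed with the refitted background (adjusted p = 0.013) and not in the planned analysis (adjusted p = 0.17). On day 8 the level stood at 2.35 (2.87 refitted), 2.98 and 2.89 with shCdk8-1 and at 2.65, 2.67 and 2.58 with shNTC. The change of 0.11 did not pass as planned (limma's adjusted p = 0.65), and refitted all 3 arrays lay above shNTC and Acvr2b rose by 0.28 (adjusted p = 0.017). Refitted, the Cdk8 hairpins differed for Acvr2b by 0.24 on day 8 and 0.36 on day 13 (adjusted p = 0.038 and 0.0035), and as planned by 0.07 and 0.36 (adjusted p = 0.77 and 0.091).

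**Figure D2:**
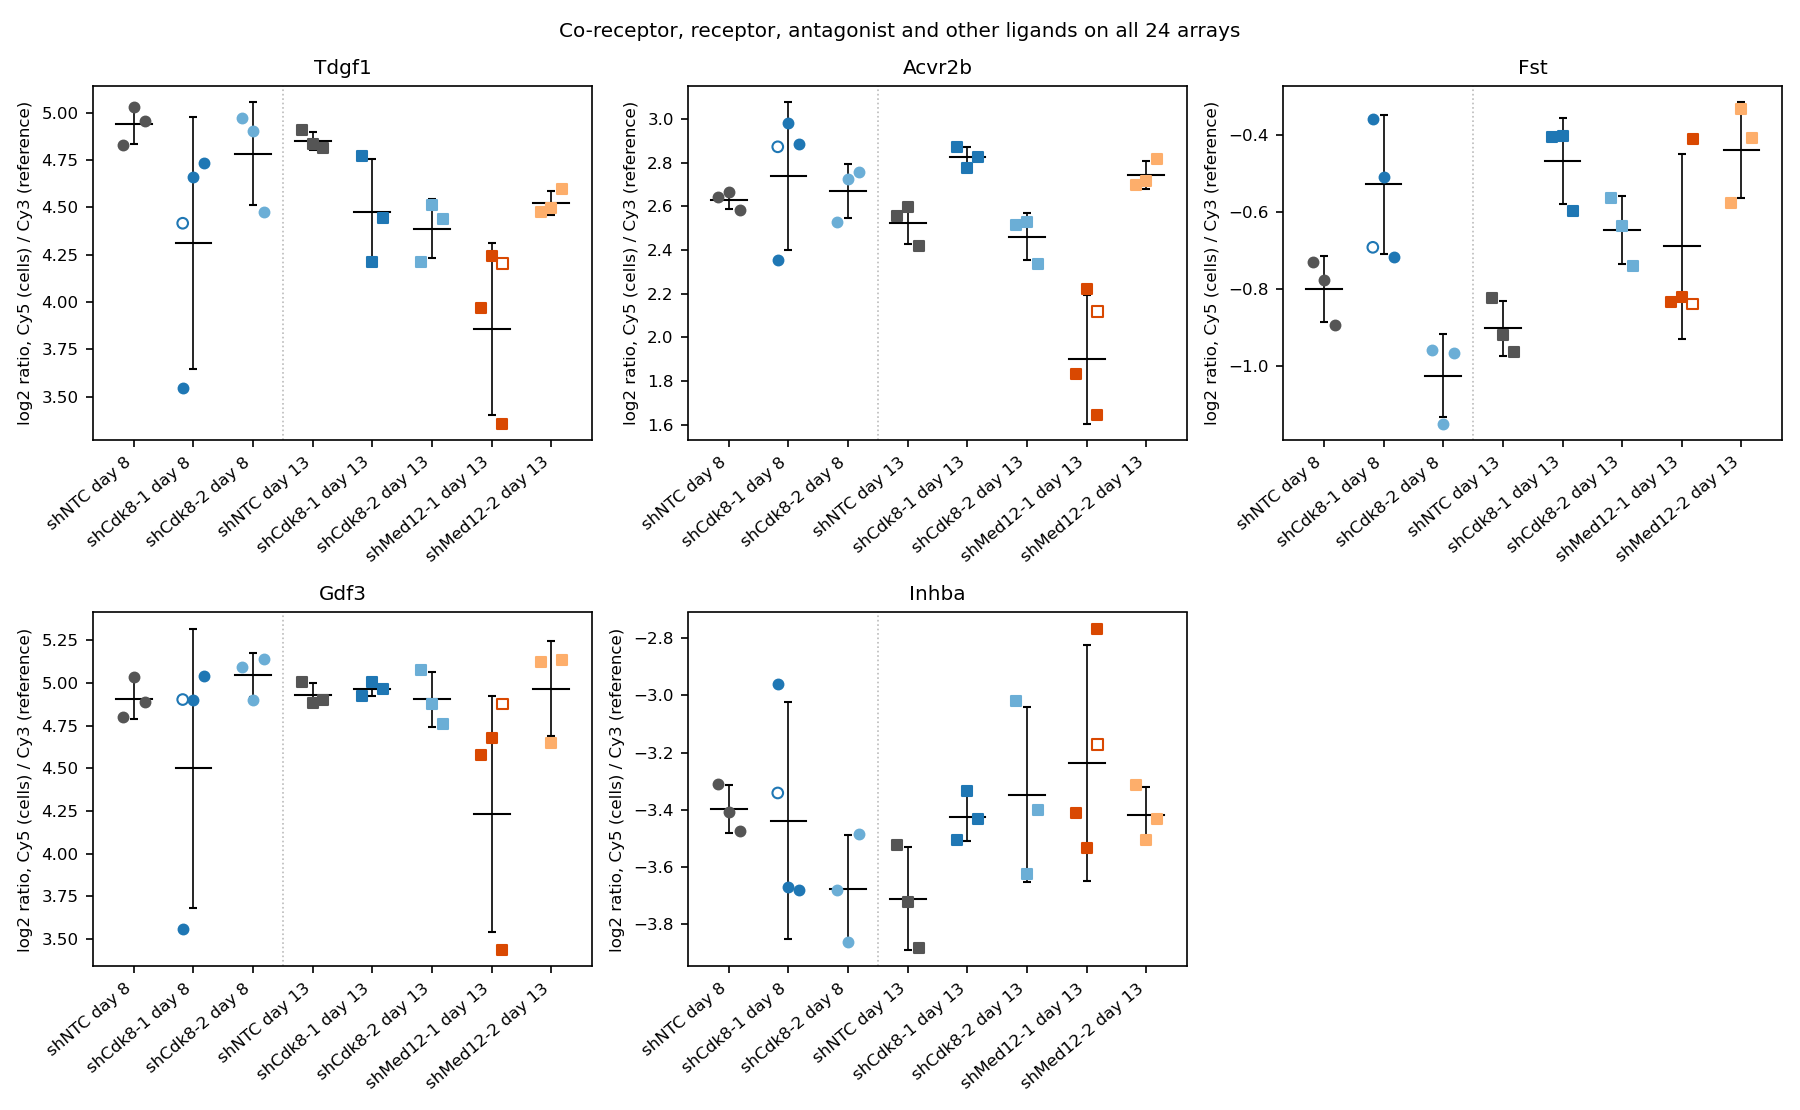
Log2 ratio of Cy5 (cells) over Cy3 (reference) of Tdgf1, Acvr2b, Fst, Gdf3 and Inhba on each of the 24 arrays, by group (symbols and bars as in the plot of both Inhbb probes). The filled points that stand apart at shCdk8-1 day 8 and shMed12-1 day 13 for Gdf3, at 3.56 and 3.43, are the 2 arrays with pulled log ratios, and their refitted values are the open symbols.

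Lefty1 and Lefty2, the NODAL inhibitors and pathway targets, both rose with shCdk8-2 on day 8 and both fell with shMed12-1 on day 13. On day 8 Lefty1 stood at 5.02, 5.05 and 4.82 with shNTC and at 5.92, 5.81 and 5.84 with shCdk8-2. Lefty2 stood at 1.70, 1.91 and 1.71 with shNTC and at 2.94, 2.88 and 2.73 with shCdk8-2. All shCdk8-2 arrays lay above all shNTC arrays for both genes, as they did for 17.4% of all probes. Lefty1 rose 1.85-fold (log2 change 0.89, SE 0.15, limma's adjusted p = 0.00036) and Lefty2 2.11-fold (log2 change 1.08, SE 0.20, adjusted p = 0.00082). On the slide that held both groups the differences were 0.81 for Lefty1 and 1.03 for Lefty2.

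With shCdk8-1 on day 8, Lefty1 stood at 4.76, 5.17 and 5.47 and Lefty2 at 1.60, 2.48 and 2.64, the first value of each from the array with pulled log ratios. The other 2 arrays lay above all shNTC arrays. The planned changes of 0.17 and 0.47 did not pass (limma's adjusted p = 0.51 and 0.11). Refitted, that array stood at 5.35 for Lefty1 and 2.24 for Lefty2, all 3 arrays were then above shNTC, and both genes rose (log2 changes of 0.36 and 0.68, adjusted p = 0.00094 and 0.00022). Without this array and the pulled shMed12-1 array the changes were 0.35 and 0.79 (adjusted p = 0.0065 and 0.00019). Whichever background was used, the rise was smaller with shCdk8-1 than with shCdk8-2, by 0.73 for Lefty1 and 0.61 for Lefty2 as planned (adjusted p = 0.0019 and 0.038) and by 0.53 and 0.39 refitted (adjusted p = 1.51e-05 and 0.02). With the pulled array left out, the difference between hairpins was -0.29 for Lefty2 and did not pass (adjusted p = 0.24).

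On day 13 the Cdk8 hairpins left no change of either gene past the threshold. Lefty1 stood at 5.25, 5.27 and 5.27 with shNTC, 5.31, 5.36 and 5.24 with shCdk8-1 and 5.11, 5.10 and 5.25 with shCdk8-2. Lefty2 stood at 2.68, 2.70 and 2.57 with shNTC, 2.74, 2.08 and 2.22 with shCdk8-1 and 2.45, 2.44 and 2.47 with shCdk8-2. The shCdk8-2 arrays lay just below the shNTC arrays for both genes, as 17.2% of all probes did. The 95% intervals of the changes ran from -0.42 to 0.35 for Lefty1 and from -0.71 to 0.21 for Lefty2 over both hairpins.

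The Med12 hairpins parted on these genes. With shMed12-1, Lefty1 stood at 4.11, 4.12 and 3.46 and Lefty2 at 1.14, 1.20 and 0.70, and with shMed12-2 at 5.60, 5.41 and 5.57 and at 2.48, 2.45 and 2.65. The shMed12-1 arrays were the lowest 3 of all 24 for both genes, whereas the shMed12-2 arrays lay above shNTC for Lefty1 and overlapped it for Lefty2. Of all probes tested, 21.3% lay entirely below shNTC with shMed12-1 and 21.1% entirely above it with shMed12-2. Lefty1 fell 2.58-fold and Lefty2 3.103-fold with shMed12-1 (log2 changes of -1.37 and -1.63, limma's adjusted p = 9.81e-07 and 3.74e-06). The refitted background put the third array at 4.10 and 1.25 and the changes at -1.15 and -1.45. With shMed12-2 the changes were 0.26 (95% interval -0.05 to 0.57) and -0.12 (-0.53 to 0.29), and that of Lefty1 passed only with the refitted background among those 2 analyses (adjusted p = 0.01). The hairpins differed by 1.63 for Lefty1 and 1.51 for Lefty2 (adjusted p = 1.15e-07 and 1.08e-05), and neither gene was called lower with both Med12 hairpins. The arrays of the Med12 hairpins shared no slide with each other.

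**Figure D3:**
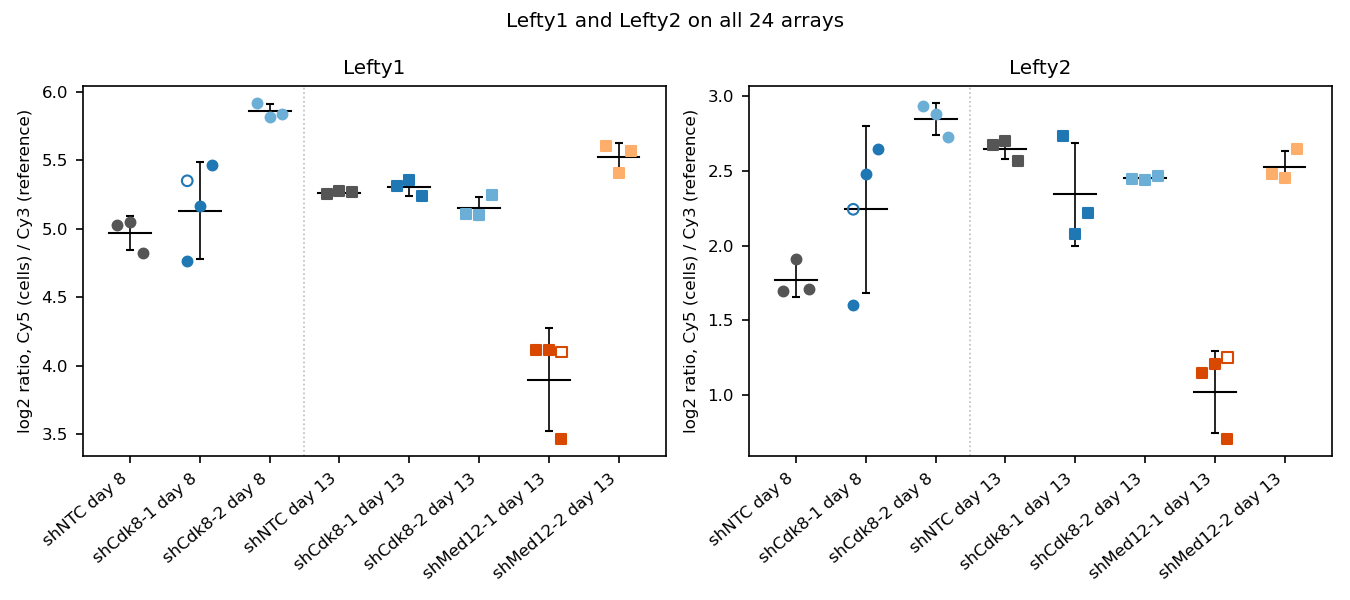
Log2 ratio of Cy5 (cells) over Cy3 (reference) of Lefty1 and Lefty2 on each of the 24 arrays, by group (circles, day 8; squares, day 13; bars, mean and SD of 3 arrays; open symbols, the 2 arrays with the refitted background). For both genes the shCdk8-2 arrays of day 8 are the highest group by mean and the shMed12-1 arrays the lowest.

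Across all 24 arrays Lefty1 and Lefty2 had a Pearson correlation of 0.93 (0.91 with the refitted background), the highest of any pair of members, and no p is given because arrays of a group are not independent points. The genes are close relatives, and how far the probe of each also binds transcripts of the other was not tested. Acvr2b followed Lefty1 with a correlation of 0.81 (0.72 refitted), and both Inhbb probes followed each other with 0.87 (0.89 refitted). Inhbb and Lefty1 had a correlation of 0.08.

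**Figure D4:**
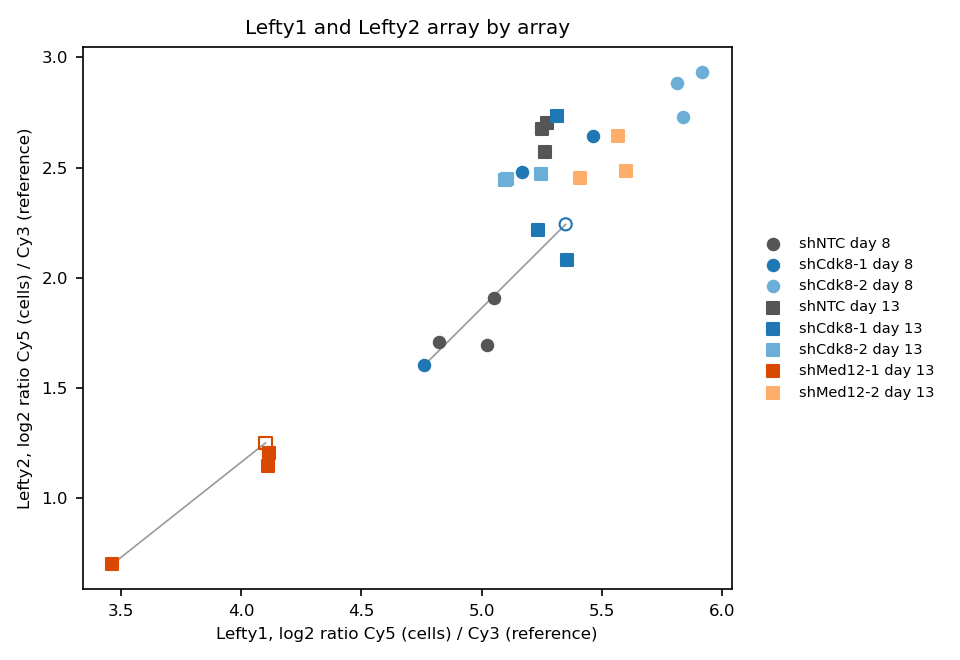
Lefty2 against Lefty1 (log2 ratio of Cy5 over Cy3) with 1 point per array (circles, day 8; squares, day 13). Grey lines join the planned value of the 2 arrays with pulled log ratios to the refitted value (open symbols), and the correlation over the 24 filled points is 0.93.

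Fst, which encodes the activin-binding protein follistatin, was higher with 1 hairpin of each gene on day 13. Its level was below that of the reference mixture throughout, and it was not well above background on 3 arrays, all of shCdk8-2. On day 13 the shNTC arrays stood at -0.82, -0.92 and -0.96, the shCdk8-1 arrays at -0.40, -0.40 and -0.60, the shCdk8-2 arrays at -0.56, -0.64 and -0.74 and the shMed12-2 arrays at -0.58, -0.33 and -0.41. Each of these 3 hairpin groups lay above shNTC, as 16.8%, 16.6% and 21.1% of all probes did, and the shMed12-1 arrays (-0.84, -0.82 and -0.41) overlapped it. The last of these is the array with pulled log ratios, and refitted it stood at -0.84. Fst rose 1.35-fold with shCdk8-1 (log2 change 0.43, SE 0.11, limma's adjusted p = 0.0094) and 1.38-fold with shMed12-2 (log2 change 0.46, SE 0.11, adjusted p = 0.0041). The change of 0.26 with shCdk8-2 passed only with the refitted background among those 2 analyses (adjusted p = 0.024, against 0.14), and that of 0.21 with shMed12-1, which was 0.07 refitted, passed in neither. The Med12 hairpins differed for Fst by -0.25 (adjusted p = 0.11), and by -0.39 (adjusted p = 0.0005) refitted. The rise with shCdk8-1 was not called with slide as a fixed block (0.45, adjusted p = 0.21), and neither rise was called with the log ratios centred on their median in place of loess (adjusted p = 0.17 and 0.095). On day 8 all shCdk8-1 arrays lay above shNTC (14.7% of all probes did) and all shCdk8-2 arrays below (16.6% did), with changes of 0.27 and -0.23 that did not pass, a difference between hairpins of 0.50 (SE 0.11, adjusted p = 0.0029). Refitted, the change with shCdk8-1 was 0.16 (adjusted p = 0.15), that with shCdk8-2 was called lower (-0.23, adjusted p = 0.041) and the difference was 0.39 (adjusted p = 0.00085).

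Counted over the 9 probes, 2 were lower and 0 higher with shCdk8-1 on day 8, when 16.2% of all probes tested were called, and 2 were lower and 2 higher with shCdk8-2, when 13.7% were. On day 13, 2 were lower and 1 higher with shCdk8-1 (11.8% of all probes), and 1 was lower with shCdk8-2 (11%). With shMed12-1, 6 of the 9 were lower (23.5% of all probes were called, 11.4% as lower), and with shMed12-2, 2 were lower and 1 higher (16.9%). Between the hairpins, 3 of the 9 differed for Cdk8 on day 8 (16.7% of all probes), 1 for Cdk8 on day 13 (10.8%) and 4 for Med12 (20.3%). Called with both hairpins in the same direction were the 2 Inhbb probes on day 8 (4.96% of all probes, 2.39% as lower), 1 Inhbb probe on day 13 (3.92%, 1.76% as lower) and the 2 Inhbb probes with Med12 hairpins (8.1%, 3.64% as lower). The median change of the 9 probes was -0.70 with shMed12-1 and between -0.15 and 0.04 in the other 5 comparisons, against medians over all probes within 0.01 of 0. The planned median with shMed12-1 is the value of Gdf3, and refitted the median with this hairpin was -0.47. No member other than Inhbb was called with both hairpins of a knockdown in the planned analysis. Refitted, Lefty1 and Lefty2 were so called for Cdk8 on day 8 (both higher) and Tdgf1 (lower) and Fst (higher) for Cdk8 on day 13. The refitted background also called more of all probes with both Cdk8 hairpins on each day, with counts given under the dependence on processing.

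**Figure D5:**
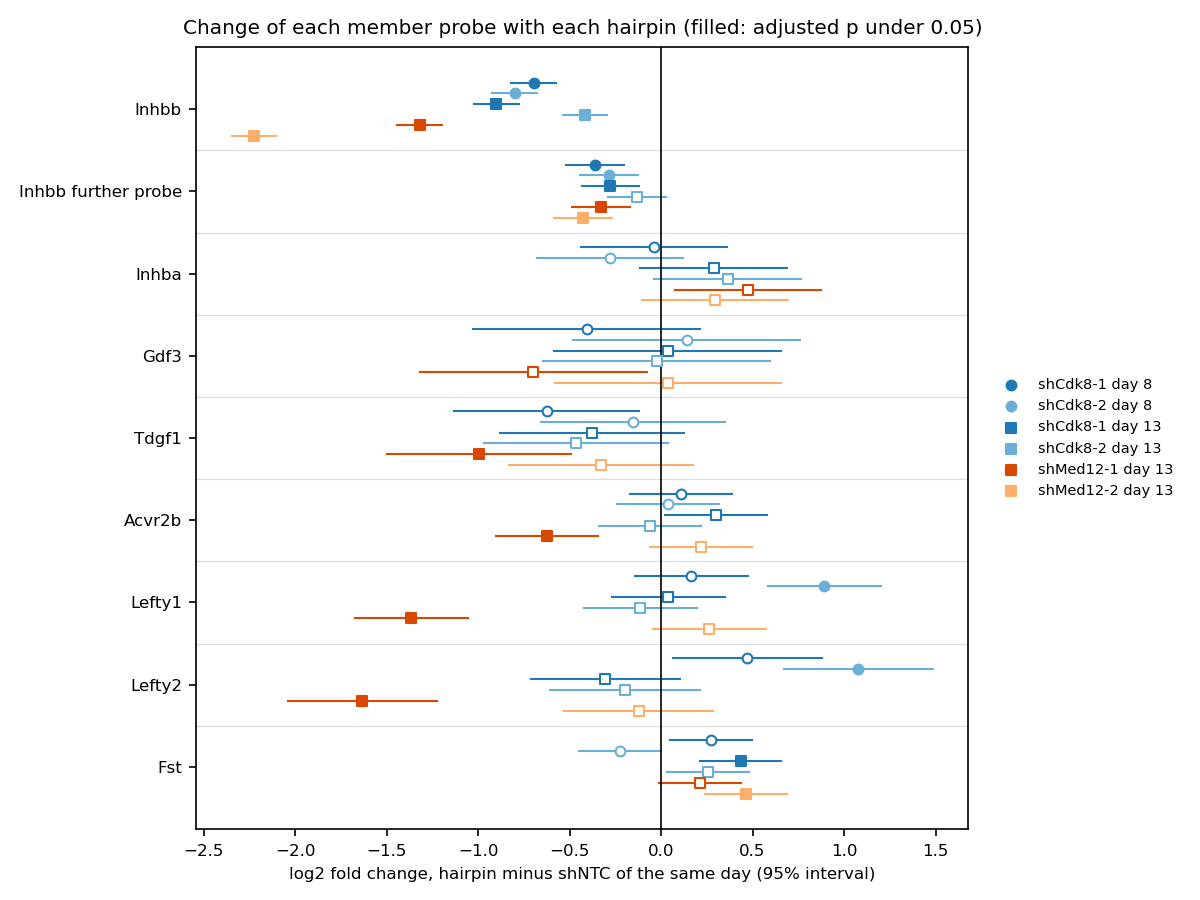
Log2 change of each member probe with each hairpin against shNTC of the same day (points) with 95% intervals (lines); filled symbols have an adjusted p under 0.05. All 6 changes of the brighter Inhbb probe lie between -2.23 and -0.42, and Lefty1 and Lefty2 lie on both sides of 0.

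Over time in cells with shNTC, from day 8 to day 13, Lefty2 rose 1.84-fold (log2 change 0.88, SE 0.20, limma's adjusted p = 0.0033) and the brighter Inhbb probe fell 1.31-fold (log2 change -0.39, SE 0.06, adjusted p = 6.95e-05), while 17.2% of all probes tested were called. With the log ratios centred on their median in place of loess, Inhbb changed by -0.34 and was not called (adjusted p = 0.31). On the 2 slides that held both days the differences were 1.01 and 0.66 for Lefty2 and -0.39 and -0.32 for Inhbb. Lefty1 changed by 0.30 (adjusted p = 0.19, and 0.0041 with the refitted background).

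The Cdk8 effect, averaged over both hairpins, differed between the days for Lefty2. It was 0.77 on day 8 and -0.25 on day 13, a difference of -1.03 (SE 0.24, limma's adjusted p = 0.027), and 2.09% of all probes were called in this contrast. The call was lost with slide as a fixed block and without any 1 of 5 shNTC arrays (replicates 1 and 3 of day 8 and all 3 of day 13), with changes from -1.07 to -0.99 and adjusted p from 0.055 to 0.085 in the latter. The shNTC arrays themselves rose for Lefty2 between the days, from 1.77 ± 0.12 to 2.65 ± 0.07, while the shCdk8-2 arrays went from 2.85 ± 0.11 to 2.45 ± 0.01 (SD, n = 3). For Lefty1 the averaged effect went from 0.53 to -0.04 (difference -0.57, adjusted p = 0.13, and -0.66 with adjusted p = 4.8e-05 refitted). With shCdk8-2 alone the difference passed for Lefty1 (-1.004), Lefty2 (-1.28) and Inhbb (0.39), with adjusted p of 0.0062, 0.0085 and 0.0077 (5.24% of all probes), and with shCdk8-1 alone it passed for none of the 9 probes (0.439% of all probes). Refitted, the difference with shCdk8-1 passed for Lefty2 (-0.99, adjusted p = 0.0015), that with shCdk8-2 also for Inhba (0.64, adjusted p = 0.03) and Fst (0.48, adjusted p = 0.0061), and the averaged one also for Fst (0.38, adjusted p = 0.019). Markers of other cell types also moved with the Cdk8 hairpins by day. Acta2, Pdgfrb and Tagln of the 15 fibroblast and feeder markers and Krt8 and Krt18 of the 7 trophectoderm markers fell with both on day 8 (refitted, Gata3 as well). On day 13, Vim, Acta2 and Tagln and Gata3, Krt8 and Krt18 rose with both. Of all genes with a symbol, 5.93% were called with both on day 8 and 5.09% on day 13. The part of these markers in the values of Lefty2 was not tested.

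Between the knockdowns on day 13, 5 of the 9 probes were higher with the Cdk8 hairpins than with the Med12 hairpins, each averaged over 2 hairpins (17.5% of all probes called, 8.09% as higher). These were both Inhbb probes, Lefty2 (0.63, limma's adjusted p = 0.0029), Lefty1 (0.51, adjusted p = 0.0014) and Acvr2b (0.32, adjusted p = 0.021). For Lefty1, Lefty2 and Acvr2b this average joins 2 Med12 hairpins that differed from each other.

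Of 61 further genes of the pathway in 5 lists, 54 were measured by a probe above background, taking the brightest probe of each gene. On day 8, 4 rose and 2 fell with both Cdk8 hairpins, or 11.1% of the 54, against 5.93% of the 13731 genes with a symbol. On day 13, 2 rose and 2 fell with both Cdk8 hairpins (7.41% against 5.09%), and 4 rose and 3 fell with both Med12 hairpins (13.0% against 10.4%). The median change of the 54 was between 0.01 and 0.04 in the 3 comparisons, and that of all genes lay within 0.01 of 0.

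Among 9 measured ligand, processing and co-receptor genes, Gdf1, a ligand that pairs with NODAL, rose with the Cdk8 hairpins on day 8 (0.28 and 0.52, the log2 changes with hairpin 1 and hairpin 2). With the Med12 hairpins Furin, a protease that cleaves precursors of such ligands, rose (0.66 and 0.53), as did Tgfb2 (0.63 and 1.12), a ligand of the TGF-beta receptors, and Inhbe, a further inhibin beta subunit, fell (-0.31 and -0.34). None of the 9 was called with both Cdk8 hairpins on day 13, when Tgfb2 stood at 0.39 and 0.68 and Tgfb3 at 0.54 and -0.12. Of the 7 receptors, Tgfbr1 rose with the Cdk8 hairpins on day 8 (0.19 and 0.36). Acvr1, a type I receptor known mainly for bone morphogenetic protein signals, rose on day 13 with the Cdk8 hairpins (0.26 and 0.40) and the Med12 hairpins (0.37 and 0.32).

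Of the 10 SMADs and nuclear partners measured, Skil, a repressor of SMAD complexes that the pathway induces, rose with the Cdk8 hairpins on day 8 (0.28 and 0.26), and Smad4 rose with the Med12 hairpins (0.31 and 0.18). On day 13 none of the 10 was called with both Cdk8 hairpins, and the largest mean changes were those of the signal transducers Smad3 (0.31 and 0.09) and Smad4 (0.23 and 0.10). None of 14 antagonists and feedback genes was called with both hairpins of a knockdown. The largest mean change was that of Fstl1, a gene related to follistatin, with the Cdk8 hairpins (0.01 and 0.59 on day 8, 0.26 and 0.90 on day 13), and with the Med12 hairpins that of Tmeff1, which encodes an inhibitor of CRIPTO, at -0.66 and -0.33.

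Among 14 target genes measured, Gata6 and Sox17, endoderm transcription factors, fell with the Cdk8 hairpins on day 8 (-0.62 and -1.38 for Gata6, -0.69 and -0.81 for Sox17) and on day 13 (-0.86 and -0.68, and -0.59 and -0.60). With the Med12 hairpins Sox17 (-0.62 and -0.60) and Foxa2 (-0.48 and -0.60) fell. Fgf5 and Fgf8, growth factor genes of the epiblast, fell with shMed12-1 and rose with shMed12-2, Fgf5 at -1.27 with shMed12-1 and 1.82 with shMed12-2 and Fgf8 at -0.93 and 1.05. Averaged over both Med12 hairpins, Fgf5 changed by 0.28 as planned and 0.47 refitted, and Fgf8 by 0.06 and 0.10. These 2 genes were singled out after their values were seen. With the refitted background the called targets numbered 3 higher and 2 lower for Cdk8 on day 8, 2 higher and 3 lower on day 13, and 1 higher and 4 lower for Med12. For Cdk8 this background also raised the count of all probes called with both hairpins on each day.

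The ES cell label was checked with 8 markers, Tdgf1 among them. All 8 were well above background on every array, and their median log2 ratio per array lay between 6.25 and 6.54 with shNTC. It lay between 4.73 and 5.60 with shMed12-1 (5.53 to 6.13 refitted) and between 5.90 and 6.23 with shMed12-2. With shCdk8-1 it lay between 4.74 and 6.15 on day 8 (5.71 to 6.15 refitted) and between 6.06 and 6.22 on day 13. With shCdk8-2 it lay between 6.09 and 6.285 on day 8 and between 5.98 and 6.48 on day 13. Of the 8, Klf4 alone was called lower with both Med12 hairpins, and with both Cdk8 hairpins on day 13, in the planned analysis. Refitted, 3 of the 8 were called lower with both Med12 hairpins and 2 with both Cdk8 hairpins on day 13. Of all genes with a symbol, 5.93% were called with both Cdk8 hairpins on day 8, 5.09% with both on day 13 and 10.4% with both Med12 hairpins. Of 7 measured trophectoderm markers, 4 (Gata3, Krt7, Krt8 and Krt18) rose with both Med12 hairpins. The other 3 were not called with both, among them Cdx2 (-0.22 with shMed12-1 and -0.72 with shMed12-2) and Hand1 (0.78 and 0.12). The median of the 7 lay between 1.40 and 1.60 with shMed12-1, 0.40 and 0.62 with shMed12-2 and -0.09 and 0.05 with shNTC on day 13. The median of 15 fibroblast and feeder markers was between -4.24 and -3.19 over all arrays, with Col1a1, Vim, Acta2 and Tagln higher with both Med12 hairpins. Of 17 measured primitive endoderm markers, 7 fell with both Cdk8 hairpins on day 8 and 4 on day 13, and 4 fell and 1 rose with both Med12 hairpins. Refitted, 8 and 6 fell with both Cdk8 hairpins on day 8 and day 13, and 7 fell and 1 rose with both Med12 hairpins. Gata6, Sox17 and Foxa2 stand in this list and among the targets. The part of these marker changes in the values of the pathway genes was not tested, and in these bulk samples fewer cells that express a gene cannot be told apart from less RNA per cell.

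The genes whose levels were most like those of a member over the 24 arrays were found among all genes with a symbol, taking each gene's brightest probe, as a description that shared hairpins, arrays and reference shape. For Inhbb they were Plaat3, Myo1g and Spn, each with a Pearson correlation of 0.94. For Lefty1 they were Cox6b2 (0.93), Slc7a3 (0.92) and Snurf (0.91), and for Lefty2 Snurf (0.90), Rnaseh2b (0.89) and Cox6b2 (0.88). For Tdgf1 they were Spryd4, Tcl1 and Slc5a11 (each 0.91), for Fst Selenok, Adamts1 and Tcim (0.86, 0.86 and 0.85), and for Acvr2b Zfp945, Rxrg and Slc27a2 (0.92, 0.91 and 0.90). With the refitted background the correlation of Tdgf1 with Slc5a11 was 0.72, and the other 17 lay between 0.79 and 0.95.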

How the data were processed

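The deposited scanner files hold, per the file headers, median spot and local background intensity in Cy5 and Cy3, and log10 of Cy5 over Cy3 as Feature Extraction computed it. The authors used Agilent Feature Extraction 10.7, per the submitters' processing notes. The log2 ratios of the value table that the authors deposited had a slope of 1.00 on the scanner log ratios of the same arrays. Their blanks are not explained in the sources used here. Here the intensities were background-corrected (normexp, offset 50), loess-normalised within arrays without the 1639 control spots, and averaged per probe. Kept were the 28304 probes whose Cy5 signal was well above background on every array of some group, and 63 of these with missing values were left out. limma 3.58.1 (R 4.3.3) fitted 8 group means to all 24 arrays in 1 model. Tests were two-sided, with Benjamini-Hochberg adjustment over all 28241 probes and a threshold of 0.05. Changes are log2 differences. "Called with both hairpins" means that each hairpin passed in the same direction.

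Probes were named by accession through a RefSeq gene table. Of 41174 probes, 22951 matched a symbol and 18223 did not. All member probes are reported. From each further pathway list up to 4 genes called with both hairpins are named, largest mean change first, and up to 2 as values where none was, except for 1 item that is not reported here. For each member with a call, the 3 most correlated genes are named. The members and lists were chosen with earlier results of these data known. The number of arrays limits the precision, and p-values measure the spread between these samples, which may be partly technical. The fit was tested on simulated data. Samples with the same replicate number did not deviate together (median correlation -0.01, over 0.1 in 15 of 84 pairs), so the numbers were not taken to pair samples. Alternatives changed the background correction, the normalisation, the filter, the value source, the slide or replicate block and the arrays used.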

Additional observations from a re-analysis of the deposited data

Results flagged for a closer look

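The effect of a Cdk8 hairpin against shNTC differed between day 8 and day 13 in 4 results, each by limma's interaction contrast with Benjamini-Hochberg adjustment over all probes. The Lefty2 effect averaged over both hairpins was lower on day 13, with a difference of -1.03 on the log2 scale (adjusted p = 0.027). This call was lost with slide as a fixed block and without any 1 of several shNTC arrays, and the shNTC arrays themselves rose by 0.88 for Lefty2 between the days. With shCdk8-2 alone the Lefty2 effect differed by -1.28 (adjusted p = 0.0085) and the Lefty1 effect by -1.004 (adjusted p = 0.0062), both from a rise on day 8 to a value not past the threshold on day 13. The Inhbb effect with shCdk8-2 differed by 0.39 (adjusted p = 0.0077), from a larger fall on day 8 to a smaller one on day 13. With shCdk8-1 alone none of these 3 genes passed in the planned analysis. Refitted, the Lefty2 difference with this hairpin was -0.99 and passed (limma's adjusted p = 0.0015).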

How the results depend on the processing

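Counts of the 9 member probes called were compared across settings, and the cause of a moved count was not tested. With the refitted background they were 4 for Cdk8 on day 8 (2 as planned), 3 for Cdk8 on day 13 (1 as planned) and 3 for the difference of the Cdk8 effect between days (1 as planned). Without both arrays with pulled log ratios they were 4, 3 and 4. With the Feature Extraction log ratio, and with the authors' values, they were 4, 2 and 3, and also 4 for shNTC over time (2 as planned) and 13 for hairpins against each other (8 as planned). With median centring they were 0 for Cdk8 on day 13, 1 for Med12 (2 as planned), 1 for shNTC over time, 2 for the Cdk8 effect and 3 for Cdk8 against Med12 (5 as planned). The Cy5 channel alone gave 4 for Cdk8 on day 8 and 2 for the Cdk8 effect. With 1 probe per gene, Cdk8 on day 8 and Med12 had 1 each. With slide as a fixed block they had 1 each, the Cdk8 effect 0 and the hairpins 5, and with the refitted background and that block the Cdk8 effect had 2. Fitting only the groups compared gave 1 and 2 for Cdk8 on days 8 and 13 and 5 for shNTC over time. Leaving out 1 array gave 1 to 3 for Cdk8 on day 8, 0 to 2 for the Cdk8 effect, 3 to 5 for Cdk8 against Med12 and 7 to 11 for the hairpins, and left Cdk8 on day 13 at 1, Med12 at 2 and shNTC over time at 2. Cdk8 on day 8 had 1 without shNTC replicate 3 or shCdk8-2 replicate 3, and Cdk8 against Med12 had 3 without shCdk8-2 replicate 2 or shMed12-1 replicate 3. Leaving out shMed12-1 replicate 2 brought the changes of Gdf3 (-0.92, limma's adjusted p = 0.042) and Inhba (0.62, adjusted p = 0.035) with that hairpin past the threshold, and leaving out shCdk8-1 replicate 2 or 3 did so for Tdgf1 on day 8 (-0.80 and -0.84). In each of these fits the array with pulled log ratios stayed in the group. With all arrays and the refitted background the changes were -0.22, 0.34 and -0.34 (limma's adjusted p = 0.16, 0.063 and 0.068), and none passed. The dimmer Inhbb probe lost its call with shCdk8-2 on day 8 without shNTC or shCdk8-2 replicate 3, and with shCdk8-1 on day 13 without shNTC replicate 3 or shCdk8-1 replicate 2 or 3. The mean Cdk8 change of Gdf3 on day 8 was -0.13 and not called, and 0.20 (limma's adjusted p = 0.014) in the Cy5 channel alone.

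Over all probes (all probes, Cdk8 knockdown, day 8), 1401 were called with both hairpins, against 2144 refitted, 2319 and 2328 with the Feature Extraction and authors' values, 95 with median centring, 349 with slide as a fixed block and 556 with only those groups. For all probes, Cdk8 knockdown, day 13 the count of 1107 became 1821, 2159, 2157, 55 and 296 in the first 5 of these. For all probes, Med12 knockdown, day 13 the count of 2287 became 418 with median centring and 807 with slide. For all probes, shNTC, day 13 against day 8 the count of 4859 became 7340, 7347, 1166 (median centring) and 7730 (only those groups). For all probes, Cdk8 effect, day 13 against day 8 the count of 591 became 1434 refitted, 1406, 1408, 22 with median centring, 975 in Cy5 alone and 177 with slide. For all probes, Cdk8 against Med12 knockdown, day 13 the count of 4931 became 1030 with median centring.

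With the replicate number as a block, member counts were 2, 1 and 2 for Cdk8 on day 8, Cdk8 on day 13 and Med12. This replicate block ended 2 calls among the member results, Lefty2 between the Cdk8 hairpins on day 8 (-0.61, limma's adjusted p = 0.052) and the dimmer Inhbb probe averaged over Cdk8 hairpins on day 13 (-0.21, adjusted p = 0.056).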
